A study of Mus musculus with 4 samples.

Results

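Fully grown mouse oocytes were compared with 8-cell embryos for the 5′ ends of RNA that lie in repeats. The 2 stages are 2 of the 4 samples of a nanoCAGE series, chosen by their stage labels, and account for 6 of its 11 sequencing runs. Oocytes and embryos came from F1 (C57BL/6J X CBA/H) crosses, the tissue label of both is embryo, and the 8-cell embryos were collected at 68 h. No treatment or genotype beyond the cross is given. Each stage was 1 sample with 3 runs, numbered 1.1, 1.2 and 2, and the labels do not say whether the runs came from separate pools of cells. There were therefore no replicates, no p-value was computed, and the spread between runs may be technical. In both stages runs 1.1 and 1.2 overlapped more with each other in read positions than either did with run 2, as given below. Whether runs 1.1 and 1.2 are 1 preparation sequenced again was not tested. If they are, averages over 3 runs give that preparation more weight than run 2. Results without 8-cell run 2 would then rest on 1 preparation of 8-cell embryos. The files hold repeat families and read positions and no genes, so the stage labels could not be set against marker genes.

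NanoCAGE selects the capped 5′ ends of small amounts of RNA, so that a read start marks a candidate transcription start. Repeats carry their own promoters. LTR retrotransposons start from long terminal repeats, LINEs move by copying themselves through an RNA, and SINEs are short elements that borrow the LINE proteins. In mouse, MaLR elements (MT and ORR1) act as promoters of many oocyte transcripts, and ERVL elements (MERVL with its MT2 repeats) are a hallmark of the embryo's first transcription. The 8-cell embryo has passed genome activation and lost most maternal RNA.

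Run totals in the table of 47 repeat families were 563012, 1919263 and 377629 counts for oocyte runs 1.1, 1.2 and 2, and 48685, 80059 and 1252133 for the 8-cell runs. 3 counts correspond to between 0.000156% and 0.00616% of a run. 8-cell run 2 stood apart from the other 8-cell runs, and each result below is given with and without it where it matters. Its rRNA share was 26.5% against 0.807% and 3.81%, and its reads had a median score of 54, with 16 and 28 in the others. Its read starts overlapped more with each oocyte run than with either of the other 8-cell runs. The read names place oocyte runs 1.1 and 2 in 1 sequencing run and oocyte run 1.2 and 8-cell run 1.2, on 2 lanes, in another. 8-cell runs 1.1 and 2 came from sequencing runs that hold no oocyte run. Only the pair of runs numbered 1.2 thus compares the stages within a sequencing run.

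A family's share is its percentage of the run's counts over all 47 families, and stages are compared by the average over 3 runs each. A family was said to rise or fall where its 8-cell and oocyte averages were 2-fold or more apart and no run of one stage reached the range of the other. In bulk samples fewer cells of a type and less RNA per cell cannot be told apart, and a share can change because other families changed. By this rule 8 of 47 families (17.0%) were higher in the 8-cell embryo and 3 (6.38%) lower, so 23.4% were called. Of the 36 families that held 100 counts or more when both stages were added, 6 rose (16.7%) and 3 fell (8.33%). The risers were ERVL, L2, B4, B2, MER1_type and the family named Y-chromosome, and the fallers were satellites, small cytoplasmic RNA and low-complexity sequence. Without 8-cell run 2 the rule called 15 families higher and 6 lower. The median log2 ratio of the 36 families was 0.45, and 0.05 after scaling by median-of-ratios size factors.

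**Figure D1:**
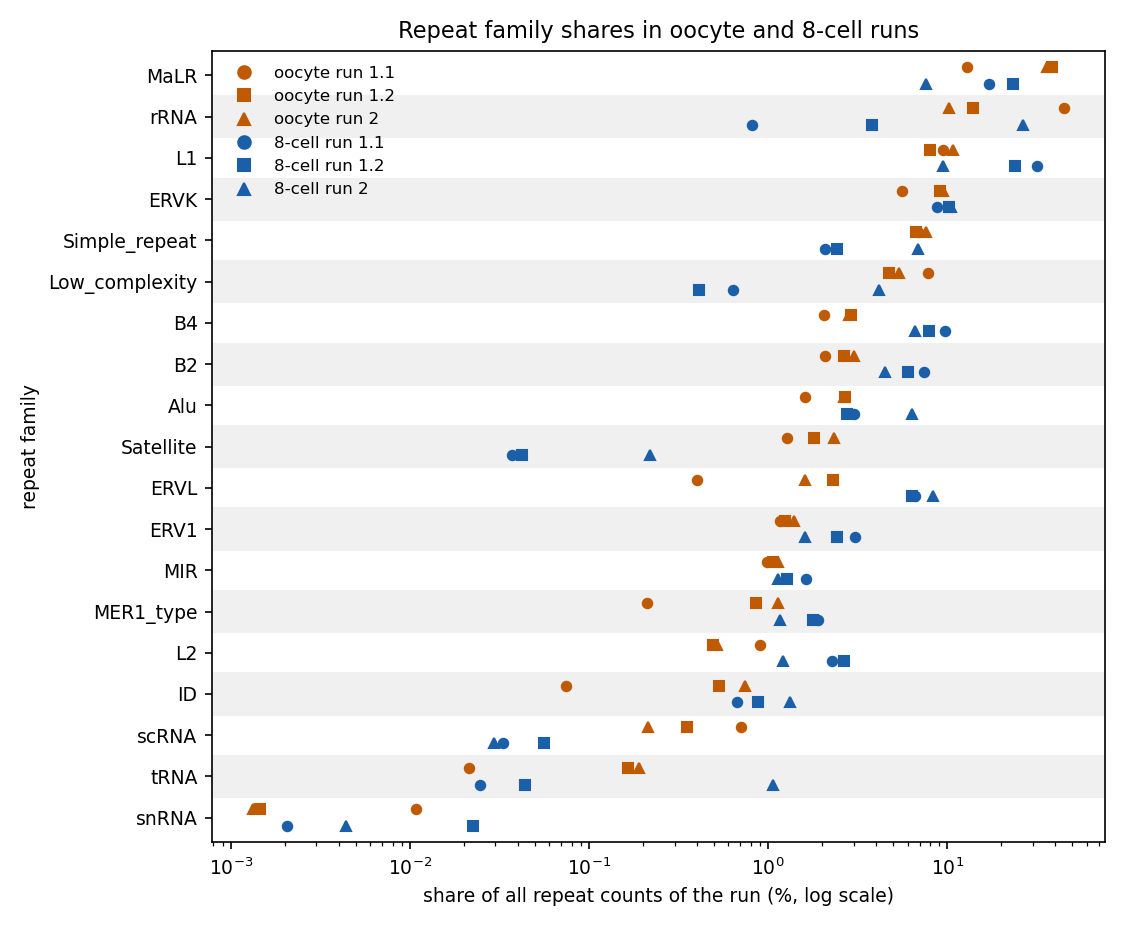
Share of all repeat counts (percent, log axis) of 19 repeat families, with 1 point per run, oocyte runs in orange and 8-cell runs in blue. ERVL, B4, B2 and L2 show all blue points to the right of all orange points, satellites and scRNA show the opposite order, and for L1, rRNA and Simple_repeat 8-cell run 2 (blue triangle) lies inside the oocyte range.

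The largest single differences in mean share were in 3 families that did not pass the rule. MaLR differed by -13.2 percentage points (8-cell minus oocyte), rRNA by -12.7 and L1 by 12.2. ERVL followed with 5.64, B4 with 5.49, low-complexity sequence with -4.24 and B2 with 3.43. The differences moved with single runs: without 1 run in turn MaLR ran from -21.3 to -8.59, rRNA from -20.8 to -1.75 and L1 from 7.20 to 18.3. The smallest rRNA difference was the one without oocyte run 1.1, and with counts pooled over runs its ratio was 1.24, in the other direction. In rank by mean share MaLR went from 1 to 2, L1 from 3 to 1, B4 from 7 to 5 and ERVL from 11 to 6.

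Among the LTR families ERVL rose most of those with at least 100 counts. Its shares were 0.403%, 2.30% and 1.60% in the oocyte (runs 1.1, 1.2 and 2, the order used throughout) against 6.56%, 6.39% and 8.29% in the 8-cell embryo. Every 8-cell run lay above every oocyte run, and the ratio of means was 4.93. It was 4.51 without 8-cell run 2. Leaving out 1 run in turn, it ran from 3.63 (without oocyte run 1.1) to 7.06 (without oocyte run 1.2). Within the rows of transposon families (LINE, SINE, LTR and DNA transposons) ERVL took 1.06%, 3.23% and 2.20% against 6.90%, 7.01% and 13.7%, a ratio of 4.24, and 3.21 without 8-cell run 2. Of the 9 LTR families 3 rose, and those besides ERVL, Gypsy? and ERVL?, held 37 and 16 counts over both stages.

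MaLR took 12.9%, 38.3% and 36.2% in the oocyte runs and 17.1%, 23.3% and 7.62% in the 8-cell runs. The low oocyte value belongs to run 1.1, where rRNA took 44.9% of counts, and because of it the stages overlapped. As a share of transposon rows MaLR took 34.1%, 53.9% and 49.7% in the oocyte and 17.9%, 25.5% and 12.6% in the 8-cell embryo. On that scale all 8-cell runs lay below all oocyte runs and MaLR fell 2.46-fold, from 45.9% to 18.7%, or 2.11-fold without 8-cell run 2. With size factors its ratio was 0.425, and without oocyte run 1.1 it was 0.429 over all counts, both of which passed. In each oocyte run MaLR was ahead of L1, by the least in run 1.1, with 34.1% against 24.8% of transposon rows.

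ERVK, which includes the IAP elements, took 5.61%, 9.11% and 9.41% in the oocyte and 8.77%, 10.2% and 10.5% in the 8-cell embryo, with overlapping runs. Its ratio was 1.22 over all counts, 0.933 in transposon rows and 0.959 with size factors, so its direction depended on the scale. ERV1 took 1.16%, 1.24% and 1.40% against 3.04%, 2.41% and 1.61%. All 8-cell runs were above, but the ratio of 1.86 stayed under the limit, and without 8-cell run 2 it was 2.15 and passed. In transposon rows the ERV1 ratio was 1.26 with overlapping runs. As a class LTR elements took 39.9% of oocyte and 35.3% of 8-cell counts, with overlapping runs. In transposon rows they took 53.0%, 71.7% and 66.8% against 37.3%, 46.4% and 46.3%, with no overlap and a 1.47-fold lower mean, under the limit.

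Among LINEs, L1, the family that holds the active autonomous elements of the mouse, took 9.43%, 8.05% and 10.8% in the oocyte and 31.7%, 23.8% and 9.47% in the 8-cell embryo. 8-cell run 2 lay within the oocyte range, so the mean ratio of 2.30 did not pass, and without that run the ratio was 2.94 and passed. It also passed without oocyte run 2, at 2.48. In transposon rows L1 took 24.8%, 11.3% and 14.9% against 33.4%, 26.1% and 15.6%, a ratio of 1.47 that did not pass with or without 8-cell run 2. L2, an old family of inactive copies, took 0.896%, 0.495% and 0.516% against 2.26%, 2.66% and 1.22%, and rose 3.22-fold. In transposon rows the L2 ratio was 1.94 with overlapping runs, and with size factors 1.91, neither of which passed, while without 8-cell run 2 it was 2.11 in transposon rows, and without oocyte run 1.1 3.47, both of which passed. RTE took 0.0496%, 0.131% and 0.278% of oocyte transposon rows and 0.0367%, 0.0452% and 0.0223% of 8-cell ones. On this scale it fell 4.40-fold, 3.73-fold without 8-cell run 2 and 2.60-fold without oocyte run 2, whereas over all counts its runs overlapped.

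SINEs were the only transposon class called as a whole over all counts. They took 6.78%, 9.85% and 10.4% of counts in the oocyte and 22.5%, 18.9% and 19.9% in the 8-cell embryo, and 8-cell run 2 lay between the other 8-cell runs. The class rose 2.27-fold, and 2.30-fold without 8-cell run 2. In transposon rows its runs stayed apart (13.8% to 17.9% against 20.7% to 32.9%), but the ratio of 1.68 did not pass. 2 of the 6 SINE families rose.

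B4 took 2.05%, 2.91% and 2.84% in the oocyte and 9.74%, 7.93% and 6.60% in the 8-cell embryo, and rose 3.11-fold. It also rose in transposon rows, 2.23-fold, with 5.41%, 4.09% and 3.89% against 10.2%, 8.69% and 10.9%, and with size factors, 2.27-fold. B2 took 2.06%, 2.64% and 3.01% against 7.44%, 6.06% and 4.49%, a rise of 2.33-fold. Its ratio was 1.65 in transposon rows, 1.68 with size factors and 1.82 with counts pooled over runs, none of which passed. B1, listed under the family name Alu, took 1.61%, 2.67% and 2.66% against 3.01%, 2.76% and 6.37%, and its ratio of 1.75 did not pass. Pooled counts gave 2.45 and dropping 8-cell run 1.2 gave 2.03, which passed, whereas dropping 8-cell run 2 gave 1.25. In transposon rows the Alu ratio was 1.43 with overlapping runs. Its direction there rested on 8-cell run 2: once that run was dropped the ratio was 0.796, with the remaining 8-cell runs below every oocyte run. Over all counts 8-cell run 2 had the highest Alu share and the lowest B2 and B4 shares of the 8-cell runs, while in transposon rows it had the highest B4 share. The B2 count was 2.47 and 2.20 times the Alu count in 8-cell runs 1.1 and 1.2 and 0.706 times in run 2, with 1.28, 0.987 and 1.13 in the oocyte runs. ID, with a ratio of 2.14, had overlapping runs. MIR, an old SINE family, had a ratio of 1.27 over all counts and 0.885 in transposon rows, so its direction depended on the scale.

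Of the 15 DNA transposon families, which are fossil elements in the mouse, only MER1_type rose over all counts. MER1_type took 0.212%, 0.860% and 1.14% in the oocyte and 1.90%, 1.78% and 1.16% in the 8-cell embryo, a ratio of 2.19. The ratio did not pass in transposon rows (1.76), with size factors (1.88) with counts pooled over the runs of a stage (1.59), without oocyte run 1.1 (1.62) or without 8-cell run 1.1 (1.999), and without oocyte run 2 it passed in transposon rows (2.21). In transposon rows hAT fell 5.80-fold, from 0.0711% to 0.0123%, and 5.26-fold without 8-cell run 2. Leaving out 1 run in turn, the fall ran from 4.09-fold (without oocyte run 2) to 8.76-fold (without 8-cell run 1.2). Over all counts the hAT runs overlapped, and the 8-cell runs held 3, 15 and 74 hAT counts. In all, 4 of the 34 transposon families rose on that scale (11.8%) and 3 fell (8.82%), 20.6% in all. The risers with at least 100 counts were ERVL and B4, and the fallers were MaLR, RTE and hAT.

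**Figure D2:**
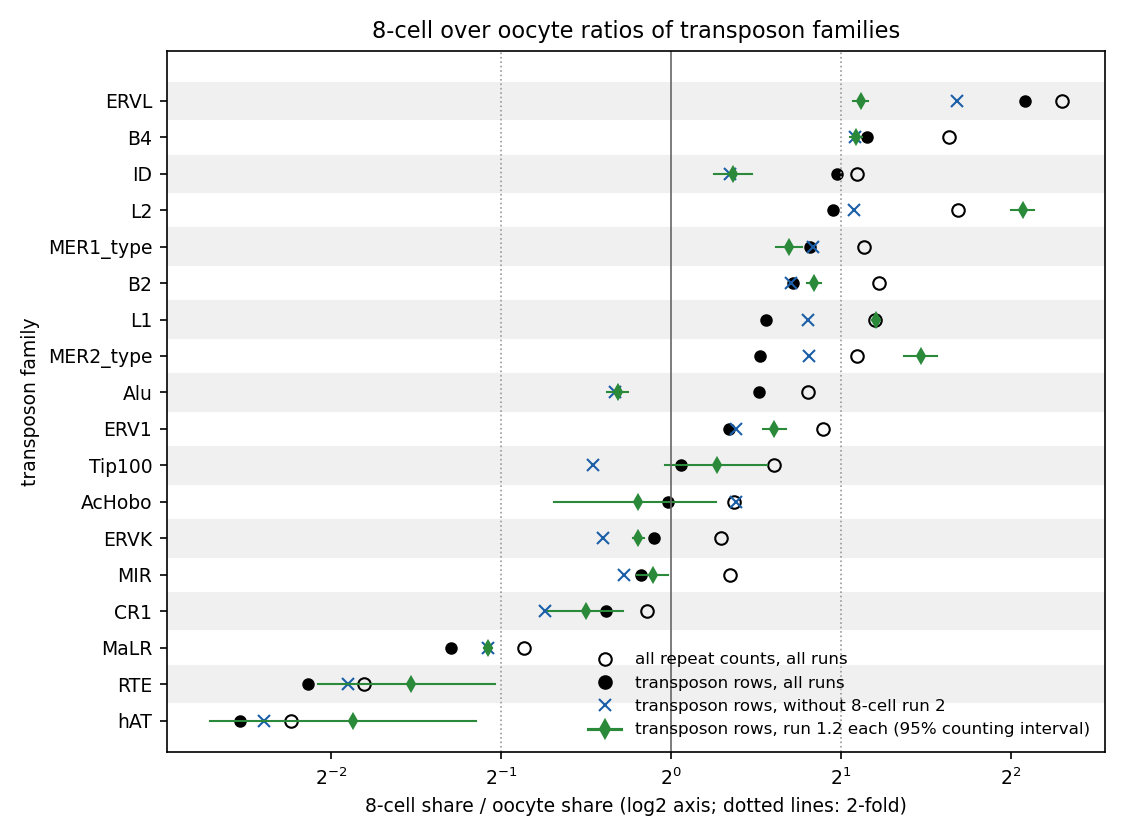
Ratio of the 8-cell to the oocyte share (log2 axis, dotted lines at 2-fold) for the transposon families that held 1000 counts or more, as share of all counts (open circles), share of transposon rows (filled circles), the latter without 8-cell run 2 (crosses) and for run 1.2 of each stage (diamonds with 95% counting intervals). ERVL and B4 lie beyond the upper line and hAT and RTE beyond the lower line by every measure, while MaLR lies beyond the lower line for the 3 measures in transposon rows only.

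Ratios between families of the same run need no total, and so do not depend on rRNA. These pairs were picked after the values were seen. For each MaLR count the oocyte runs had 0.0311, 0.0601 and 0.0443 ERVL counts, against 0.385, 0.275 and 1.09 at the 8-cell stage. The stages did not overlap, and the mean ratio was 12.9 times higher at the 8-cell stage, or 7.30 times without 8-cell run 2, which was the highest. L1 had 0.729, 0.210 and 0.299 counts per MaLR count in the oocyte and 1.86, 1.02 and 1.24 in the 8-cell embryo. B4 had 0.159, 0.0759 and 0.0783 against 0.571, 0.341 and 0.866, and ERVK 0.434, 0.238 and 0.260 against 0.514, 0.439 and 1.38. All 4 families stood higher against MaLR in each 8-cell run than in any oocyte run, and the 4 ratios share the MaLR count. Without 8-cell run 2 the ERVK ratio was 1.54 times higher at the 8-cell stage, against 2.51 with it. The L1 ratio was 3.33 times higher with all runs, 5.40 times without oocyte run 1.1 and 2.68 times without oocyte run 1.2. ERVL also stood higher against ERVK, at 0.0718, 0.253 and 0.170 against 0.748, 0.625 and 0.786. Of 11 ratios computed, these 5 did not overlap between stages, and 6 did: ERV1 per ERVK, L2 per L1, B4 per L1, B2 per Alu, B4 per Alu and MaLR per rRNA. The last 3 did not overlap without 8-cell run 2, and were then 2.06, 2.67 and 6.24 times higher at the 8-cell stage. ERV1 per ERVK did not overlap without that run either, and was then 1.78 times higher, under the 2-fold limit.

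**Figure D3:**
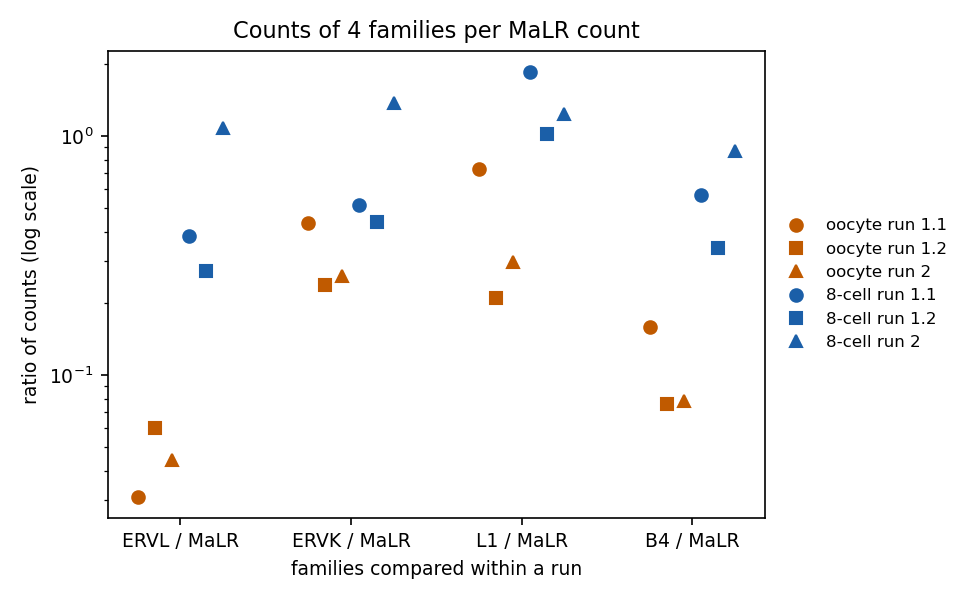
Counts of ERVL, ERVK, L1 and B4 divided by the MaLR count of the same run (log axis), with 1 point per run, oocyte in orange and 8-cell in blue. In each family every 8-cell run lies above every oocyte run, with the widest gap for ERVL (0.0311 to 0.0601 against 0.275 to 1.09).

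Outside the transposons, satellites, long tandem arrays around the centromeres, fell most. They took 1.28%, 1.81% and 2.33% in the oocyte and 0.0370%, 0.0425% and 0.219% in the 8-cell embryo. The fall was 18.2-fold, and 45.5-fold without 8-cell run 2, which had the highest satellite share of the 8-cell runs. Small cytoplasmic RNA took 0.705%, 0.354% and 0.213% against 0.0329%, 0.0562% and 0.0294%, and fell 10.7-fold, with 8-cell run 2 close to run 1.1. Low-complexity sequence took 7.84%, 4.74% and 5.36% against 0.633%, 0.413% and 4.18%. It fell 3.44-fold with all runs and 11.4-fold without 8-cell run 2, with size factors its runs overlapped, and with counts pooled over runs its ratio was 0.705, which did not pass. Simple repeats took 6.86%, 6.72% and 7.61% against 2.07%, 2.42% and 6.87%, so that only run 2 reached the oocyte range, and without it they fell 3.15-fold.

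Ribosomal RNA took 44.9%, 14.0% and 10.3% in the oocyte and 0.807%, 3.81% and 26.5% in the 8-cell embryo, with overlapping runs. Without 8-cell run 2 its 8-cell mean was 2.31% and it passed as lower. Transfer RNA took 0.0215%, 0.166% and 0.191% against 0.0246%, 0.0437% and 1.07%, so that its mean ratio of 3.01 rested on 8-cell run 2, and it was 0.271 without that run, with overlapping runs. Small nuclear RNA held 168 counts over both stages, and its runs overlapped. The family named Y-chromosome rose, with 0, 8 and 1 counts in the oocyte against 45, 62 and 18 in the 8-cell embryo. The ratio of mean shares was 251, 374 without 8-cell run 2 and 186 in the pair of runs 1.2, all on 9 or fewer oocyte counts. The ratio of pooled counts was 28.8 (exact 95% interval 14.7 to 64.4, counting error only). 8-cell run 2, the deepest of the 8-cell runs, had the fewest counts of it.

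Oocyte run 1.2 and 8-cell run 1.2, which share a sequencing run, were also compared alone, with 1 run a stage and 2-fold as the limit. In this pair 18 of 47 families were higher (38.3%) and 11 lower (23.4%) by at least 2-fold. Among the 32 families with at least 100 counts in the pair, 8 were higher (25.0%) and 10 lower (31.2%). Beside this stood rRNA at 14.0% against 3.81%, and transposon rows at 71.1% against 91.2% of counts. Intervals given here are exact 95% intervals for counting error only, which does not measure the difference between embryos.

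L2 had the largest ratio of the higher families with at least 100 counts in the pair, 5.38 (5.14 to 5.64), from 0.495% to 2.66%. L1 went from 8.05% to 23.8% (2.96, 2.91 to 3.00), ERVL from 2.30% to 6.39% (2.78, 2.70 to 2.86), B4 from 2.91% to 7.93% (2.72, 2.65 to 2.80) and B2 from 2.64% to 6.06% (2.30, 2.23 to 2.37). MER2_type, a DNA transposon family, had a ratio of 3.55 (3.32 to 3.80). Satellites were 42.7-fold lower, from 34779 counts to 34, and low-complexity sequence 11.5-fold lower. Ribosomal RNA was 3.67-fold lower and transfer RNA 3.79-fold lower. In the pair MaLR took 38.3% and 23.3%, and Alu 2.67% and 2.76%, both within 2-fold.

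In transposon rows 19 of 34 families passed 2-fold in the pair (55.9%). With at least 100 counts in the pair, 5 of 22 were higher (22.7%) and 6 lower (27.3%). L2 (4.20), MER2_type (2.77), L1 (2.31), ERVL (2.17) and B4 (2.13) were higher. MaLR, from 53.9% to 25.5%, was 2.11-fold lower, and RTE 2.89-fold and hAT 3.67-fold lower. ERVK took 12.8% and 11.2% of transposon rows. The pair is part of the comparison over all runs, so a family called there has the same direction here by construction.

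Read starts were compared by position, since the read files name no repeat. They hold 272199, 1375332 and 474089 lines for the oocyte runs and 51434, 82454 and 1155992 for the 8-cell runs, each a placement of a 25-base read in mm9. Neighbouring starts of the 6 runs were joined per strand up to a gap of 20 bp, which gave 150970 clusters. To compare a pair of runs, the lower of their read shares in each cluster was taken and added up, here called overlap.

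The mean overlap of an oocyte with an 8-cell run was 7.28% (0.707% to 19.6% over 9 pairs). Oocyte runs overlapped with each other by 74.7% (1.1 and 1.2), 15.4% (1.1 and 2) and 16.9% (1.2 and 2). 8-cell runs 1.1 and 1.2 overlapped by 42.9%, but run 2 overlapped with them by 3.05% and 7.16%, and with oocyte runs 1.1, 1.2 and 2 by 14.5%, 19.6% and 18.0%. Without 8-cell run 2 the mean overlap between stages was 2.25%. In the pair of 1 sequencing run it was 3.38%.

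A large part of the shared reads lay in the densest 10 kb of the genome in these files, on chromosome 17 from 39980001 to 39990000 (mm9). It held 9.98%, 13.6% and 17.0% of oocyte reads and 0.418%, 2.28% and 17.7% of 8-cell reads. Without it the mean overlap between stages was 3.25%, and 0.972% without 8-cell run 2 as well. 8-cell run 2 then overlapped with the oocyte runs by 5.54%, 7.47% and 10.4%, and with 8-cell runs 1.1 and 1.2 by 3.09% and 5.66%. Its nearest run was still an oocyte run, although oocyte run 1.1 lay just below 8-cell run 1.2, and how this bears on its stage label was not tested.

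**Figure D4:**
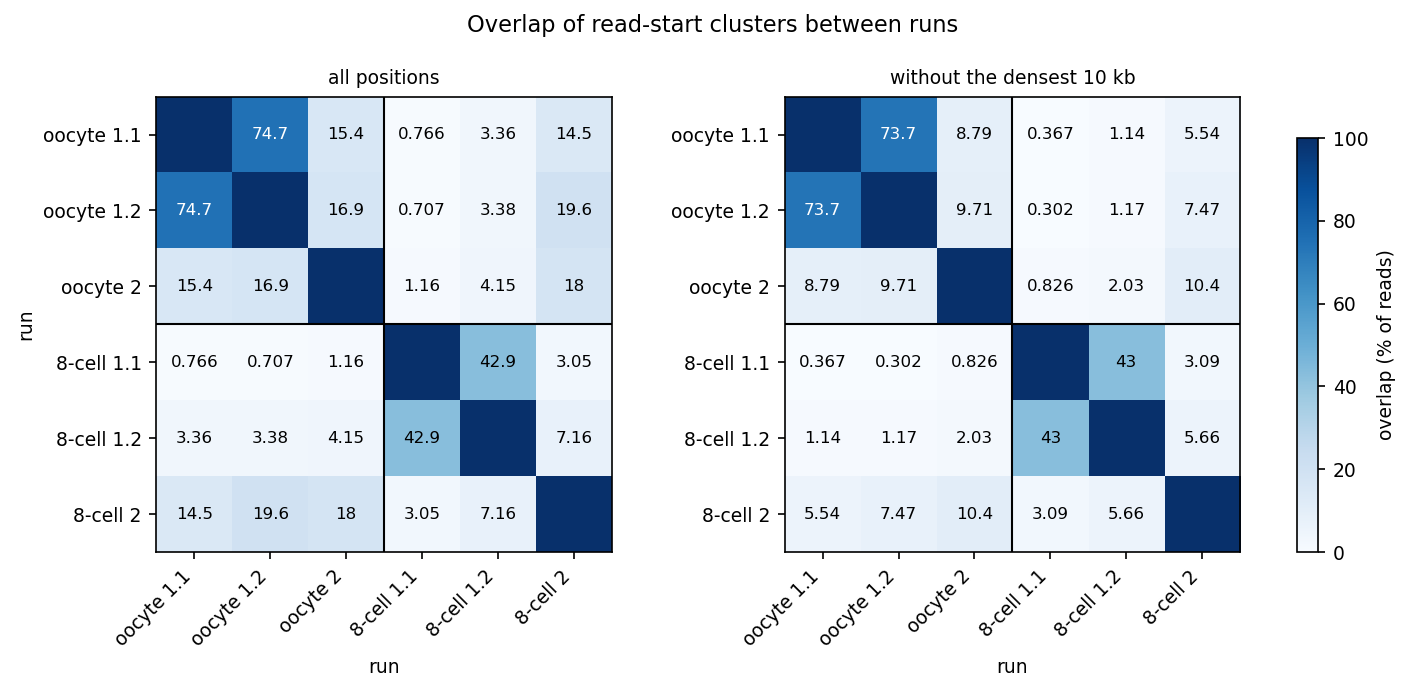
Overlap of read-start clusters between each pair of runs, in percent of reads, over all positions (left) and without the densest 10 kb (right), with lines that divide the stages. Oocyte runs 1.1 and 1.2 (74.7%) and 8-cell runs 1.1 and 1.2 (42.9%) form the darkest blocks, and 8-cell run 2 overlaps by 14.5% to 19.6% with the oocyte runs on the left and by 5.54% to 10.4% on the right.

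Overlap can only grow as positions are merged into wider bins. In bins of 10 kb the mean overlap between stages was 9.55%, in bins of 100 kb 15.1% and in bins of 1000 kb 29.7%. Without 8-cell run 2 these were 3.34%, 9.26% and 24.9%. At the same bin sizes 8-cell runs 1.1 and 1.2 overlapped by 45.1%, 52.9% and 67.6%. 8-cell run 2 overlapped with run 1.1 by 4.16%, 9.49% and 24.4% and with run 1.2 by 8.48%, 14.0% and 28.0%. All were below the means between stages, which include run 2's own pairs with the oocyte runs. Against the means without run 2, only the overlap with run 1.1 in 1000 kb bins was lower. Without the densest 10 kb, run 2 overlapped with run 1.2 by 7.13%, 13.3% and 28.7%, above the between-stage means of 4.76%, 10.9% and 27.1%. With run 1.1 it stayed below them, at 4.35%, 10.3% and 26.6%. Over all positions the oocyte runs overlapped with each other by a mean of 40.7%, 43.6% and 51.6%. With each run thinned to 51434 lines, 22.0% of the reads of 8-cell run 1.1, 29.4% of run 1.2 and 36.4% of run 2 lay in clusters with a read of any oocyte run. For oocyte runs 1.1, 1.2 and 2 the share in clusters with an 8-cell read was 20.7%, 25.6% and 58.6%. The share in clusters with a read of another run of the same stage was 89.1%, 90.8% and 63.7% in the oocyte and 68.9%, 74.5% and 36.6% in the 8-cell embryo. In both runs numbered 2 the share with the other stage was close to that with their own. The 2 shares are not on equal terms, since the other stage entered with all its runs and the own stage without the run itself. This favours the share with the other stage. Of the oocyte runs, run 2 shared most with the 8-cell runs, also without the densest 10 kb, at 50.1% against 11.9% and 13.9%.

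3020 clusters held at least 100 reads over the 6 runs. By the rule used for families, 147 of them rose (4.87%) and 339 fell (11.2%), 16.1% in all. The deep runs, oocyte 1.2 and 8-cell 2, decide most of which clusters reach 100 reads: 2738 of the 3020 had no read in 8-cell run 1.1 or 1.2, and 915 had reads in 8-cell run 2 only. With each run thinned to 51434 lines and at least 30 reads over all runs, 126 of 1148 rose (11.0%) and 91 fell (7.93%), so that the balance of higher and lower clusters depended on depth. Without 8-cell run 2, 162 rose and 434 fell, which included all 147 and all 339. Without oocyte run 2, 158 rose and 1554 fell. In the pair of runs 1.2, which differ in depth, 77 of 1447 clusters were higher (5.32%) and 1363 lower (94.2%). With both thinned to 82454 lines, 213 of 660 were higher (32.3%) and 445 lower (67.4%), and 57 held reads of both runs.

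The clusters that rose took 42.1% and 44.3% of the reads of 8-cell runs 1.1 and 1.2, 2.39% of run 2, and between 0.0208% and 0.260% of the oocyte runs. 71 of the 147 (48.3%) had no oocyte read, against 33.1% of all 3020. Their median width was 8 bp, and 66.0% spanned at most 10 bp, against 5 bp and 64.9% in clusters that passed in neither direction. The clusters that fell took 16.8%, 19.7% and 17.4% of oocyte reads and 0.0156%, 0.110% and 1.09% of 8-cell reads, and 250 of the 339 (73.7%) had no 8-cell read, against 52.7% of all 3020. Their median width was 26 bp, and 32.2% spanned at most 10 bp. The call rule itself favours clusters with few or no reads in the other stage. The higher shares of clusters without such reads, in both directions, therefore follow at least in part from the rule. Both groups were spread over 20 chromosomes and evenly over strands, with 70 plus and 77 minus among the first and 170 and 169 among the second. Median read scores were 27 in the first and 44 in the second, beside 53 in clusters that passed in neither direction. Over all reads the run medians were 50, 53 and 35 in the oocyte and 16, 28 and 54 in the 8-cell embryo. The groups drew on these runs unequally, and scores were not compared within a run.

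**Figure D5:**
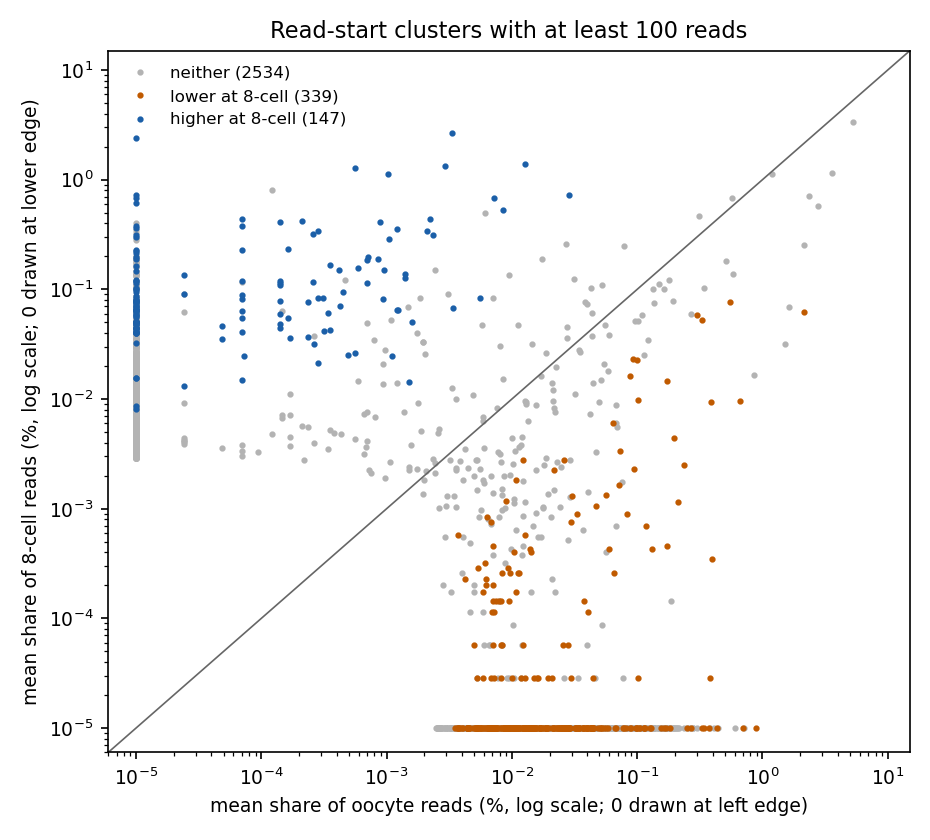
Mean share of reads of the 3020 read-start clusters with at least 100 reads in the oocyte (x) and 8-cell runs (y), both in percent on log axes, with clusters at 0 drawn at the edge and the diagonal marking equal shares. The 147 clusters that rose (blue) reach over 1% of 8-cell reads with little or no oocyte signal, and most of the 339 that fell (orange) sit on the lower edge with no 8-cell read.

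By mean share the first 8-cell cluster was the first oocyte cluster, on chromosome 17 at 39984527 to 39985168 on the minus strand. It took 5.24%, 7.47% and 3.24% of oocyte reads and 0.157%, 1.11% and 8.90% of 8-cell reads, and its place at the 8-cell stage came from run 2. The next 4 were all clusters that rose. On chromosome 15 at 91709985 to 91710001 (minus), shares were 0%, 0.000145% and 0.00991% in the oocyte and 3.82%, 4.02% and 0.0807% in the 8-cell embryo. On chromosome 8 at 106314888 to 106314898 (plus), 8-cell shares were 1.97%, 5.20% and 0.0671% with no oocyte read. Over pooled reads this was at least 3331-fold higher, against a floor of 3 reads over all oocyte runs. Clusters on chromosome 14 at 64232398 to 64232407 (minus) and chromosome 2 at 77000448 to 77000458 (minus) took 2.63%, 1.55% and 0.0367%, and 1.67%, 2.28% and 0.0506%, of the 8-cell runs. Their oocyte shares were 0.00441%, 0.0008% and 0.0327%, and 0.00147%, 0.000582% and 0.00675%. On chromosome 14, oocyte run 2 thus lay just below 8-cell run 2. In all 4, 8-cell run 2 was far below the other 8-cell runs.

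21 of the clusters that rose had reads in every run. The largest ratio among them, 1102, was on chromosome 19 at 57616159 to 57616163 (plus), with 0.00257%, 7.27e-05% and 0.000422% of oocyte reads against 0.305%, 3.07% and 0.00649%. It rested on 10 oocyte reads. Clusters on chromosome 12 at 60173453 to 60173478 (minus), chromosome 4 at 26347806 to 26347809 (minus) and chromosome 9 at 3361147 to 3361164 (plus) had ratios of 469, 291 and 281, on 15, 19 and 10 oocyte reads. With so few reads single runs moved these ratios: without 1 run in turn that on chromosome 19 ran from 153 (without 8-cell run 1.2) to 4555 (without oocyte run 1.1). Those on chromosomes 12, 4 and 9 ran from 147 (without 8-cell run 1.2) to 706, from 152 (without 8-cell run 1.1) to 641 and from 194 (without oocyte run 1.2) to 904, each highest without oocyte run 2. On chromosome 9 the shares of the 3 8-cell runs were the closest to each other of these, 0.261%, 0.279% and 0.0574%.

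Of the other leading oocyte clusters, the second and the fourth lay in the densest 10 kb on the minus strand. At 39983408 to 39983664 of chromosome 17, shares were 1.43%, 1.72% and 7.69% in the oocyte and 0.198%, 0.807% and 2.49% in the 8-cell embryo. At 39984050 to 39984255 they were 1.44%, 1.97% and 3.64% against 0.0253%, 0.181% and 1.93%. In both the stages overlapped through 8-cell run 2. On chromosome 1 at 124253748 to 124253800 (plus), shares were 0.243%, 0.534% and 7.62% in the oocyte and 0.0447%, 0.238% and 1.43% in the 8-cell embryo. On chromosome 11 at 108873031 to 108873368 (plus), they were 0.134%, 0.304% and 6.02% against 0.00778%, 0.0922% and 0.655%. On chromosomes 1 and 11, oocyte run 2 was the highest and 8-cell run 2 exceeded oocyte runs 1.1 and 1.2, so the stages overlapped. Without oocyte run 2 the 8-cell mean was the higher one, with ratios of 1.47 and 1.15. All 5 leading oocyte clusters passed as lower without 8-cell run 2, in their order by 8.41-fold, 7.19-fold, 19.8-fold, 22.8-fold and 43.1-fold.

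5 clusters that fell had reads in every run. On chromosome 13 at 97960497 to 97960565 (plus), shares were 0.330%, 0.347% and 5.76% against 0.00194%, 0.00849% and 0.174%, a 34.8-fold fall. It was 5.49-fold without oocyte run 2 and 411-fold without 8-cell run 2. The latter rested on 1 and 7 reads in 8-cell runs 1.1 and 1.2. On chromosome 7 at 115407110 to 115407113 (plus), a 4 bp cluster, shares were 0.0411%, 0.00967% and 0.0272% against 0.00194%, 0.00485% and 0.00147%, a 9.44-fold fall. It rested on 1, 4 and 17 reads in the 8-cell runs. The fall was 6.69-fold without oocyte run 1.1 and 15.2-fold without 8-cell run 1.2. The other 3 lay within the densest 10 kb of chromosome 17 on the plus strand, and fell 10.5-fold, 5.42-fold and 5.15-fold. Leaving out 1 run in turn, these ran from 3.25 (without oocyte run 2) to 14.3 (without oocyte run 1.1), from 3.76 to 25.7 and from 3.60 to 12.9, both highest without 8-cell run 2. In the same order, 8-cell runs 1.1 and 1.2 held 1 and 11, 1 and 4, and 4 and 32 reads of them.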

How the data were processed

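NanoCAGE reads of repeats were deposited by the authors as a table of read counts for 47 families in 11 runs, per the file headers, and as read placements with a score from 1 to 99 deposited without a stated scale. Build mm9 and CASAVA are named in the submitters' processing notes. For aligner settings, repeat annotation and counting rule: not given in the sources used here. Lines per 100 table counts ran from 48.3 (oocyte run 1.1) to 126 (oocyte run 2), so table counts and read lines differ in number. Whether they come from the same reads was not tested.

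Shares, ratios, clusters and overlaps were computed with Python 3.11.15, numpy 2.4.6, pandas 2.3.3 and scipy 1.17.1. Families were put into classes from general knowledge of their names. The call rule and its code were tested on simulated counts in which runs of a stage differed by counting error only. The rate of false calls in the real runs, which differ by more, was not tested. Named families are those called with at least 100 counts and 19 main families. Named clusters are the first 5 per stage and up to 5 per direction among called clusters with reads in every run. Exact (Clopper-Pearson) intervals and floors of 3 counts cover counting error only, since reads carry no molecular identifiers. Between 1.64% and 4.34% of lines repeated a line exactly and were kept. Families, lists and rules were chosen with earlier results of these data known. Clusters are not annotated and no sequence is shown, because the genome at hand (GRCm38) differs from mm9.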

Additional observations from a re-analysis of the deposited data

How the results depend on the processing

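No paired analysis was possible because each stage is 1 sample. Against 8 families higher and 3 lower, transposon rows gave 4 higher, size factors 5 and 5, counts pooled over runs 16 and 13, and the pair of runs 1.2 gave 18 and 11. Leaving out 1 run gave 8 to 15 higher (15 without 8-cell run 2) and 3 to 8 lower (8 without oocyte run 1.1, 5 without 8-cell run 1.2). The SINE ratio of 2.27 was 1.68 in transposon rows, 1.72 with size factors and 1.92 in the pair, and did not pass. The LINE ratio of 2.30 passed in the pair, at 3.01, and ran from 1.81 to 2.93 without 1 run, passing without oocyte run 2 or 8-cell run 2. The LTR ratio of 0.884 ran from 0.708 to 1.03 without 1 run. The pair called 29 families, 19 in transposon rows and 18 with at least 100 counts. Clusters (147 higher, 339 lower) came to 364 and 608 with at least 30 reads and to 77 and 1363 in the pair. Thinned to the smaller run, the pair gave 213 and 445 of 660 clusters, and all runs thinned gave 126 and 91. Without 1 run the lower clusters ran from 339 to 1554. With scores of at least 20, 103 rose and 255 fell. Such scores made up 32.8% of the reads of 8-cell run 1.1 and 82.1% to 90.8% in the other runs. Leaving out 1 run gave a mean overlap of 2.25% to 10.5%, and leaving out both 8-cell run 2 and the densest 10 kb gave 0.972%. The settings for clusters without the densest 10 kb, the thinned ones and the last 2 for the pair's families were chosen after seeing the data, as was leaving out runs for ratios between families and for named clusters.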

Other observations

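The Y and mitochondrial chromosomes held most of their 8-cell reads in 8-cell run 2. On the Y chromosome the oocyte runs had 61, 138 and 47 reads, and 8-cell runs 1.1, 1.2 and 2 had 15, 31 and 14135. Of the last, 13959 lay in 1 cluster of 4 bp at 2550283 to 2550286 on the minus strand (mm9), 1.21% of that run's reads, with a median score of 16. 8-cell run 1.2 had 3 reads there and the other 4 runs none. The table lists only 18 counts for the family named Y-chromosome in 8-cell run 2, so these reads are not counted under it. On the mitochondrial chromosome the oocyte runs had 1.18%, 0.987% and 0.248% of reads and the 8-cell runs 0.00972%, 0.0364% and 1.90%. A mitochondrial cluster at 3782 to 3799 on the minus strand had 43, 171 and 0 oocyte reads and 0, 0 and 4699 8-cell reads.

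Median cluster width within a run was alike in both stages, although the called clusters above differed in width. Clusters with at least 10 reads in a run had a median width of 3 to 4 bp in each of the 6 runs. Such clusters numbered from 444 (8-cell run 1.1) to 5931 (oocyte run 1.2). The most used position took a median of 71.7% to 75.0% of a cluster's reads in the oocyte. In the 8-cell embryo it took 69.2% in runs 1.1 and 1.2 and 81.4% in run 2, on either side of the oocyte range. Reads of the densest 10 kb lay on the minus strand at 93.5% to 94.3% in the oocyte and 96.3% to 97.0% in the 8-cell embryo. Chromosome 19 took 1.17%, 1.11% and 0.621% of oocyte reads and 2.17%, 4.49% and 2.40% of 8-cell reads, a ratio of 3.12 without overlap, and 3.07% of 8-cell run 1.2 came from the single cluster named above.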
